A study of Drosophila melanogaster with 8 samples.

Results

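Genes of the TNF and JNK stress pathway, together with the disc damage signal Ilp8, were followed across eye-antennal imaginal discs of 4 Drosophila melanogaster genotypes. The 8 genes considered were Ilp8, egr, Traf4, puc, Mmp1, bsk, hep and kay, and their probe sets were those whose single gene symbol, brought up to date, was one of these names. Of the 8 genes, 7 had such probe sets, 14 in all, among 11981 genes named by a single symbol on an array of 18952 probe sets. Mmp1 had no probe set under its own symbol and was not analysed here. To be tested, a probe set had to lie above the median signal of an array on 2 or more of the 8 arrays, and 11 of the 14 did so, covering all 7 genes. The other 3, 1 probe set each of Traf4, kay and bsk, were too dim to be tested.

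Every disc carried the eyeless driver ey-GAL4, which switches on UAS transgenes in the eye part of the disc, so discs also held cells outside the driver's domain. The vg_simj discs carried UAS-vg with UAS-simj, the vg discs UAS-vg with UAS-lacZ, the simj discs UAS-simj with UAS-lacZ, and the lacZ control discs 2 copies of UAS-lacZ. The vg gene encodes a cofactor that selects wing identity, and simj encodes a component of NuRD, a complex that remodels and deacetylates chromatin. The number of UAS-lacZ copies was 0 in vg_simj, 1 in vg, 1 in simj and 2 in lacZ discs, and cannot be told apart from genotype. Each genotype had 2 biological replicates, each a pool of 100 pairs of discs from wandering larvae of the last instar. The series title names transdetermination, the switch of a disc from one fate to another, by overexpression of both transgenes.

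In flies the TNF ligand Eiger, encoded by egr, binds the receptors Grindelwald and Wengen, and adaptors such as Traf4 pass the signal to a chain of kinases. The chain ends in Hemipterous (hep), which phosphorylates the JNK Basket (bsk), and JNK in turn activates the AP-1 transcription factor that contains the Fos protein Kayak (kay). Transcription of puckered (puc), a phosphatase that switches JNK off again, is the classical readout of JNK activity in discs. Damaged or overgrowing discs also secrete the insulin-like peptide Ilp8, which delays metamorphosis.

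The arrays gave MAS5 signals, intensities in arbitrary units, and their median signals lay between 36.5 and 46.3. Across probe sets, log2 signals correlated at 0.955 to 0.971 between replicates and at 0.912 to 0.963 between genotypes. In 3 of the 4 genotypes the replicates were more alike than either was to any other array. The vg probe set 1623484_at averaged 417 ± 21.9 in vg_simj, 246 ± 17.6 in vg, 19.4 ± 3.96 in simj and 28.7 ± 0.990 in lacZ discs (SD, n = 2 each). The simj probe set averaged 994 ± 117 in vg_simj, 637 ± 59.4 in vg, 1162 ± 140 in simj and 603 ± 176 in lacZ discs. By limma it was not called in simj against lacZ (adjusted p = 0.180) or vg_simj against lacZ (adjusted p = 0.132). Nor was it called in vg_simj against vg (adjusted p = 0.342). None of 10 photoreceptor genes lay below the array median on all arrays. The same held for the haemocyte, salivary gland and ring gland genes listed, so this does not identify the tissue.

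Ilp8 was the member with the largest difference in each comparison with lacZ, and its signal was higher in all 6 arrays with UAS-vg or UAS-simj than in either lacZ array. In vg_simj discs Ilp8 rose, while the ligand gene egr and the adaptor gene Traf4 fell. In vg discs Ilp8 alone was called, and in simj discs no member was. The genes of the kinase core and its readout, hep, bsk, kay and puc, were not called in any of the 7 comparisons. Calls were made with limma, in one model over all 8 arrays, at a Benjamini-Hochberg adjusted p under 0.05 over all 10205 probe sets tested, and log2 changes carry their standard errors.

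**Figure D1:**
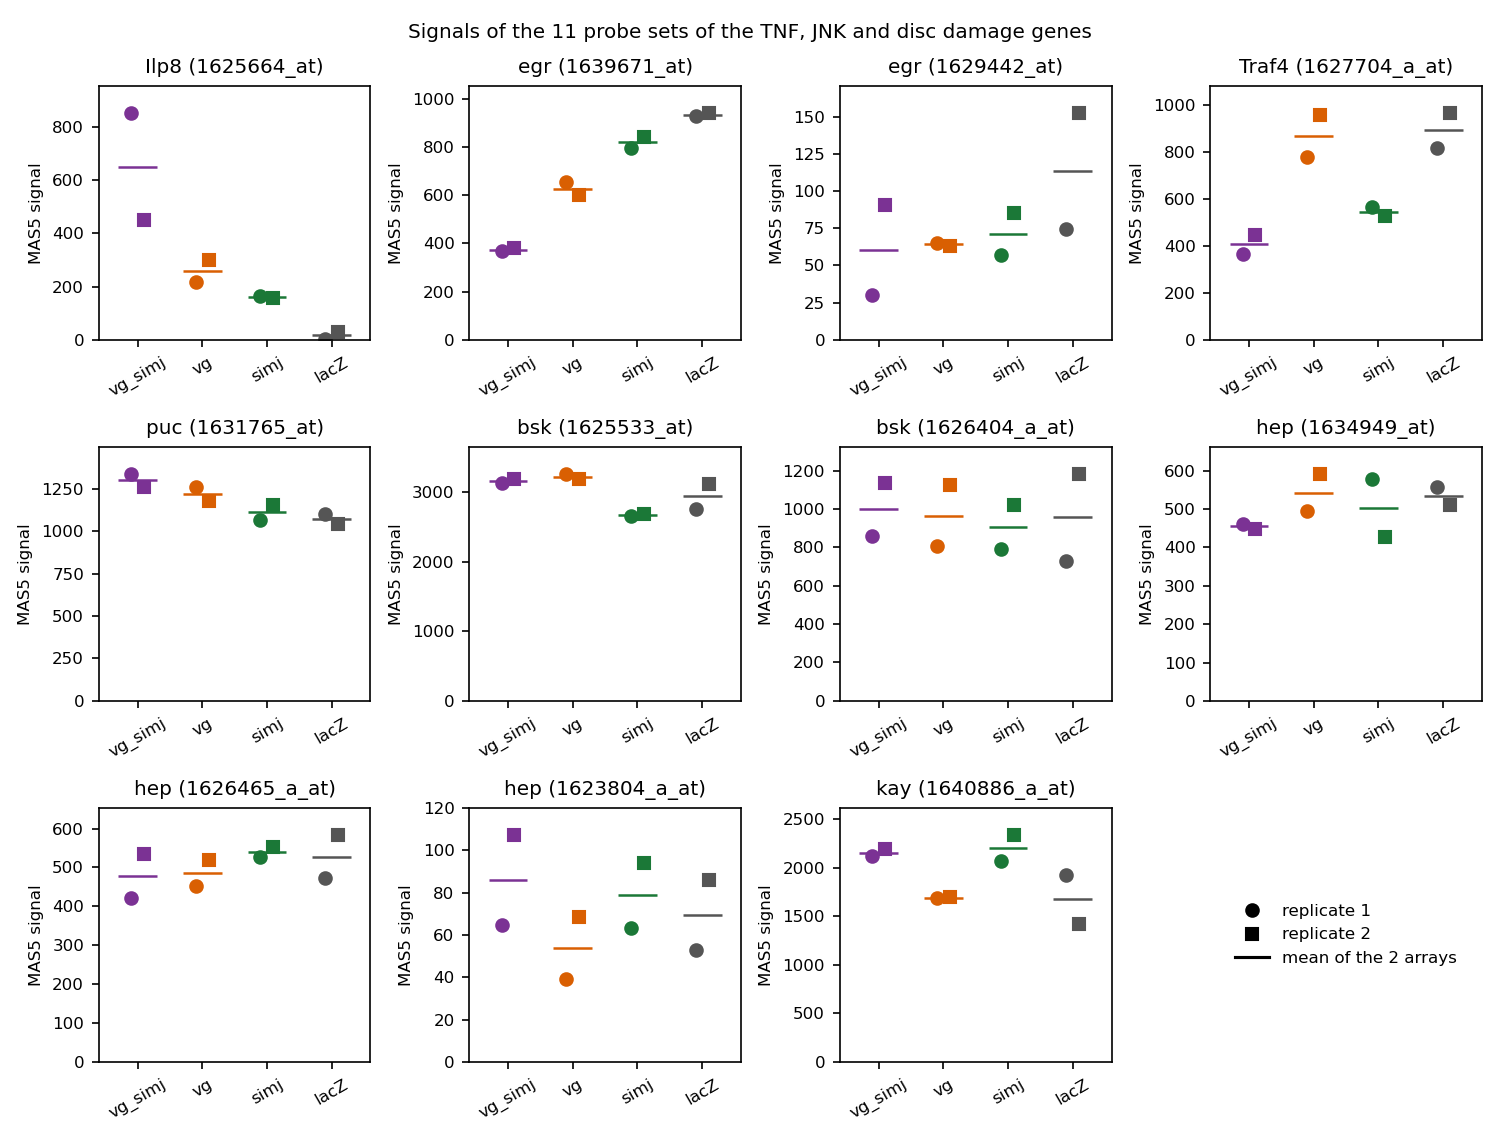
MAS5 signal (arbitrary units, vertical axis from 0) of each of the 11 tested probe sets in vg_simj, vg, simj and lacZ discs, with 1 point per array and a bar at the mean of the 2 arrays. Ilp8 stands highest in vg_simj discs and near 0 in lacZ discs, and egr (1639671_at) and Traf4 (1627704_a_at) stand lowest in vg_simj discs. The panels of puc, bsk and hep (1634949_at and 1626465_a_at) show small differences between genotype means. The dim hep probe set 1623804_a_at varies more, between replicates as well as between genotypes.

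In vg_simj against lacZ discs, 3 of the 11 probe sets were called, where 3.33% of all tested probe sets were called. An unadjusted p under 0.05 in limma was reached there by 5 of 11, against a background of 15.4%. These were Ilp8, egr (1639671_at), Traf4, puc and kay. In vg against lacZ 1 of 11 was called, against a background of 0.774%, and 2 of 11 reached an unadjusted p under 0.05, against 10.1%. In simj against lacZ none of the 11 was called by limma, against a background of 0.412%. At an unadjusted p under 0.05 it was 3 of 11, those of Ilp8, Traf4 and kay, against a background of 8.17%. These 3 comparisons share the lacZ arrays. The members were chosen with earlier results of these data known, and Ilp8 passed the filter only where it was high. Member counts set beside the background are therefore descriptions and do not test the members as a set.

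Of the comparisons among genotypes with UAS-vg or UAS-simj, vg_simj against vg called 2 of 11, egr and Traf4, against a background of 0.921%. The comparison vg_simj against simj called 1 of 11, egr, against a background of 1.30%. An unadjusted p under 0.05 in limma was reached by 2 of 11 in vg_simj against vg, against 9.58% of all tested. In vg_simj against simj 3 of 11 reached it, against 17.1%. The comparison vg against simj, added after the data were seen, called none of 11 in limma, against a background of 2.09%, while 4 of 11 reached an unadjusted p under 0.05, against 20.5% of all tested. The interaction, the departure of the joint change from the sum of the single changes, called none of 11 in limma, against 0.0490% of all tested. Of its 11 values, those of Ilp8 and egr had an unadjusted p under 0.05, against 3.96% of all tested.

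With 2 arrays a group, arrays that do not overlap were common over the whole array. The arrays of vg_simj and lacZ discs did not overlap for 7 of 11 probe sets, against 42.3% of all tested. It was 5 of 11 for vg against lacZ, against 39.4%, and 5 of 11 for simj against lacZ, against 40.1%. Between the other genotypes, arrays did not overlap for 54.7% of all tested in vg against simj. The share was 49.3% in vg_simj against simj and 36.4% in vg_simj against vg. The median log2 change over the 11 probe sets was 0.09 in vg_simj, 0.02 in vg and -0.05 in simj discs, each against lacZ. Over all tested probe sets it was 0.0013 in vg_simj, -0.0043 in vg and -0.035 in simj discs. These counts and medians describe the 11 tested probe sets and include Ilp8, which passed the filter only where it was high.

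Ilp8 (probe set 1625664_at) gave signals of 851 and 449 in vg_simj, 218 and 300.4 in vg, 165 and 157 in simj, and 4.2 and 29.6 in lacZ discs. The genotypes did not overlap with one another, in the order vg_simj, vg, simj and lacZ. Both lacZ arrays lay below their array medians of 42.4 and 43.4, so Ilp8 passed the filter through the other 6 arrays and had to differ. Its p-values against lacZ and its unchanged direction in the alternatives are therefore no separate support for the difference. The lacZ level is close to the background of the array, and the fold against it depends on the pseudocount.

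Ilp8 rose by 5.37 ± 0.65 on the log2(signal + 2.8) scale in vg_simj against lacZ discs (41.2-fold, adjusted p = 0.00456). With a pseudocount of 64 this change was 3.10. Leaving out an array moved it to 4.26 (without lacZ replicate 1) or 6.47 (without lacZ replicate 2), and without vg_simj replicate 1 the call was lost (adjusted p = 0.0503). The direction was the same in all 16 alternatives in which Ilp8 was tested, and the call was kept in 15 of them.

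In vg discs Ilp8 rose by 4.10 ± 0.65 against lacZ (17.2-fold, adjusted p = 0.0359), or by 2.00 with a pseudocount of 64. Without lacZ replicate 1 the change was 3.00, and without lacZ replicate 2 it was 5.21. This call was kept in 7 of 16 alternatives, whose adjusted p ran from 0.0104 to 0.207. It was lost with 0.1 times the pseudocount, without the intensity trend, with only the groups compared, and on leaving out any single vg, simj or vg_simj array. The difference of 3.44 ± 0.65 in simj discs against lacZ had an adjusted p of 0.0973 and a 95% interval of 1.94 to 4.94, and it was not called in any of its 16 alternatives. It was 1.49 with a pseudocount of 64, 2.34 without lacZ replicate 1 and 4.55 without lacZ replicate 2.

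The order among the vg_simj, vg and simj genotypes was less firm. The log2 difference in Ilp8 was 1.26 ± 0.65 in vg_simj against vg (adjusted p = 0.618, 95% interval -0.23 to 2.76), while vg_simj exceeded simj by 1.92 ± 0.65 (adjusted p = 0.204). The second of these was called in 4 of 16 alternatives, with a pseudocount of 64, with only the groups compared, and without either lacZ array, at an adjusted p down to 0.0188. Between vg and simj discs it was 0.66 ± 0.65 (adjusted p = 0.618). Neighbouring genotypes in the order of Ilp8 levels therefore did not pass the test, and the calls lay between vg_simj or vg and lacZ.

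The joint effect of both transgenes on Ilp8 read differently on each scale. The mean signal in vg_simj discs exceeded that in lacZ discs by 633, whereas the differences of the single transgenes were 242 in vg and 144 in simj, with a sum of 386. On the log2 scale the joint change of 5.37 was below the sum of the single changes, 7.55. The interaction was -2.18 ± 0.91 (adjusted p = 0.995), and -0.40 with a pseudocount of 64. The sign of the departure from the sum therefore differed between the signal scale and the log2 scale, and no interaction was called.

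Ilp8 overlaps CG7730 in the RefSeq annotation, and whether the array's probes could read both was not tested. The probe set of CG7730 averaged 156 ± 1.70 in vg_simj, 145 ± 15.9 in vg, 136 ± 10.4 in simj and 146 ± 33.7 in lacZ discs. Its log2 change was 0.11 ± 0.24 in vg_simj against lacZ (adjusted p = 0.888), and its vg_simj and lacZ arrays overlapped.

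The ligand gene egr was read by 2 probe sets. The brighter, 1639671_at, gave 366 and 380.1 in vg_simj, 653 and 601 in vg, 796 and 840.3 in simj, and 926 and 939 in lacZ discs. Replicates lay close together, and the genotypes did not overlap, in the order lacZ, simj, vg and vg_simj from high to low. This is the reverse of the order of Ilp8, though arrays that do not overlap were common between every pair of genotypes.

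By this probe set egr fell by 1.32 ± 0.13 on the log2 scale in vg_simj against lacZ discs (2.49-fold lower, adjusted p = 0.00159), and all 17 alternatives kept the call. Against simj discs, vg_simj discs fell by 1.13 ± 0.13 (adjusted p = 0.00741), a call lost without simj replicate 1, simj replicate 2 or vg_simj replicate 1 (adjusted p up to 0.0836). In vg_simj against vg it fell by 0.74 ± 0.13 (adjusted p = 0.0456), a call that 2 of 17 alternatives kept, with adjusted p from 0.0366 to 0.222, and that was lost on leaving out any one of the 8 arrays. The single transgenes were not called for egr. The log2 difference from lacZ was -0.57 ± 0.13 in vg (adjusted p = 0.123) and -0.19 ± 0.13 in simj discs (adjusted p = 0.755), and vg against simj differed by -0.38 ± 0.13 (adjusted p = 0.15).

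With probe set 1639671_at the joint change in egr exceeded the sum of the single changes on both scales. The mean signal of vg_simj minus that of lacZ discs was -559, and the summed differences of the single transgenes came to -420.3. On the log2 scale the sum was -0.76 and the interaction was -0.55 ± 0.18, with an unadjusted p of 0.0152 and an adjusted p of 0.995, which is no call.

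The second egr probe set, 1629442_at, was dim and gave 29.9 and 90.9 in vg_simj, 65.3 and 63.0 in vg, 56.9 and 85.6 in simj, and 74.4 and 152 in lacZ discs. The vg_simj and lacZ arrays overlapped, while both vg arrays lay below both lacZ arrays, and the log2 difference in vg_simj against lacZ was -0.98 ± 0.56 (adjusted p = 0.481). Both egr probe sets had their lowest mean in vg_simj and their highest in lacZ discs. With 1629442_at the interaction was 0.32 ± 0.79 (adjusted p = 0.995), opposite in sign to that of 1639671_at, and neither was called.

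Traf4, an adaptor that links TNF receptors to the JNK kinases, gave 365 and 446 in vg_simj, 779 and 954 in vg, 564 and 525 in simj, and 817 and 963 in lacZ discs (probe set 1627704_a_at). The vg and lacZ arrays overlapped, and both vg_simj arrays lay below every other array. The simj arrays lay between the vg_simj arrays and those of vg and lacZ.

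Traf4 fell by 1.13 ± 0.17 on the log2 scale in vg_simj against lacZ discs (2.19-fold lower, adjusted p = 0.0119). The call was lost without lacZ replicate 2 (adjusted p = 0.0860) and without vg_simj replicate 1 (adjusted p = 0.0813). In vg_simj against vg discs it fell by 1.09 ± 0.17 (adjusted p = 0.0314), a call kept in 8 of 17 alternatives. It was lost without the intensity trend, with only the groups compared, and on leaving out lacZ replicate 2 or any vg, simj or vg_simj array (adjusted p up to 0.265). The log2 difference from lacZ was -0.04 ± 0.17 in vg (adjusted p = 0.972) and -0.70 ± 0.17 in simj discs (adjusted p = 0.218). The simj value was not called in any of 17 alternatives.

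Between its middle neighbours Traf4 was not called either. The log2 difference was 0.66 ± 0.17 in vg against simj (adjusted p = 0.0923), that of vg_simj from simj was -0.43 ± 0.17 (adjusted p = 0.265), and the interaction was -0.39 ± 0.24 (adjusted p = 0.995). A second Traf4 probe set, 1637171_at, lay below the median on all arrays and was not tested. It gave 2.3 and 6.0 in vg_simj, 4.7 and 34.0 in vg, 14.1 and 4.3 in simj, and 40.1 and 35.1 in lacZ discs.

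The makeup of the discs differed between genotypes in the same arrays. In whole discs, fewer cells of a type and less RNA per cell cannot be told apart. The summed signal of the 10 photoreceptor genes was 2965 and 3604 in vg_simj, 7181 and 7728 in vg, 3983 and 3192 in simj, and 7674 and 7611 in lacZ discs. Of these genes, 6 of 10 fell in vg_simj against lacZ, where 2.29% of all tested probe sets fell. In simj against lacZ 1 (gl) fell, where 0.265% of all tested fell. None was called in vg against lacZ, where 0.774% of all tested were called. Like Traf4, the photoreceptor sum was low in vg_simj and simj and high in vg and lacZ discs, whereas egr was also lower in vg than in lacZ arrays. The part of photoreceptor content in the Traf4 and egr differences was not tested.

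Markers of other tissues also varied. The 12 haemocyte genes summed to 4357 and 3743 in vg_simj, 3210 and 2554 in vg, 9687 and 13514 in simj, and 7903 and 9154 in lacZ discs. Against lacZ, 2 of 12 fell in vg_simj, where 2.29% of all tested fell, and 3 of 12 in vg, where 0.519% fell. The 10 salivary gland genes summed to 15181 and 1823 in vg_simj, 5805 and 872 in vg, 2891 and 2755 in simj, and 180 and 243 in lacZ discs. None of the 9 tested salivary genes was called in any comparison. The salivary sum, like Ilp8, was lowest in both lacZ arrays and highest in vg_simj replicate 1. Unlike Ilp8, it was lower in replicate 2 of vg_simj and of vg than in both simj arrays.

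The 7 ring gland genes summed to 3465 and 2250 in vg_simj, 5384 and 5583 in vg, 24385 and 30994 in simj, and 18153 and 23066 in lacZ discs. Against lacZ, 6 of 7 fell in vg_simj, where 2.29% of all tested fell, and 5 of 7 in vg, where 0.519% fell. None of these haemocyte, salivary gland, ring gland or photoreceptor genes lay below the median on all 8 arrays. The part of these tissues in the member differences was not tested.

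**Figure D2:**
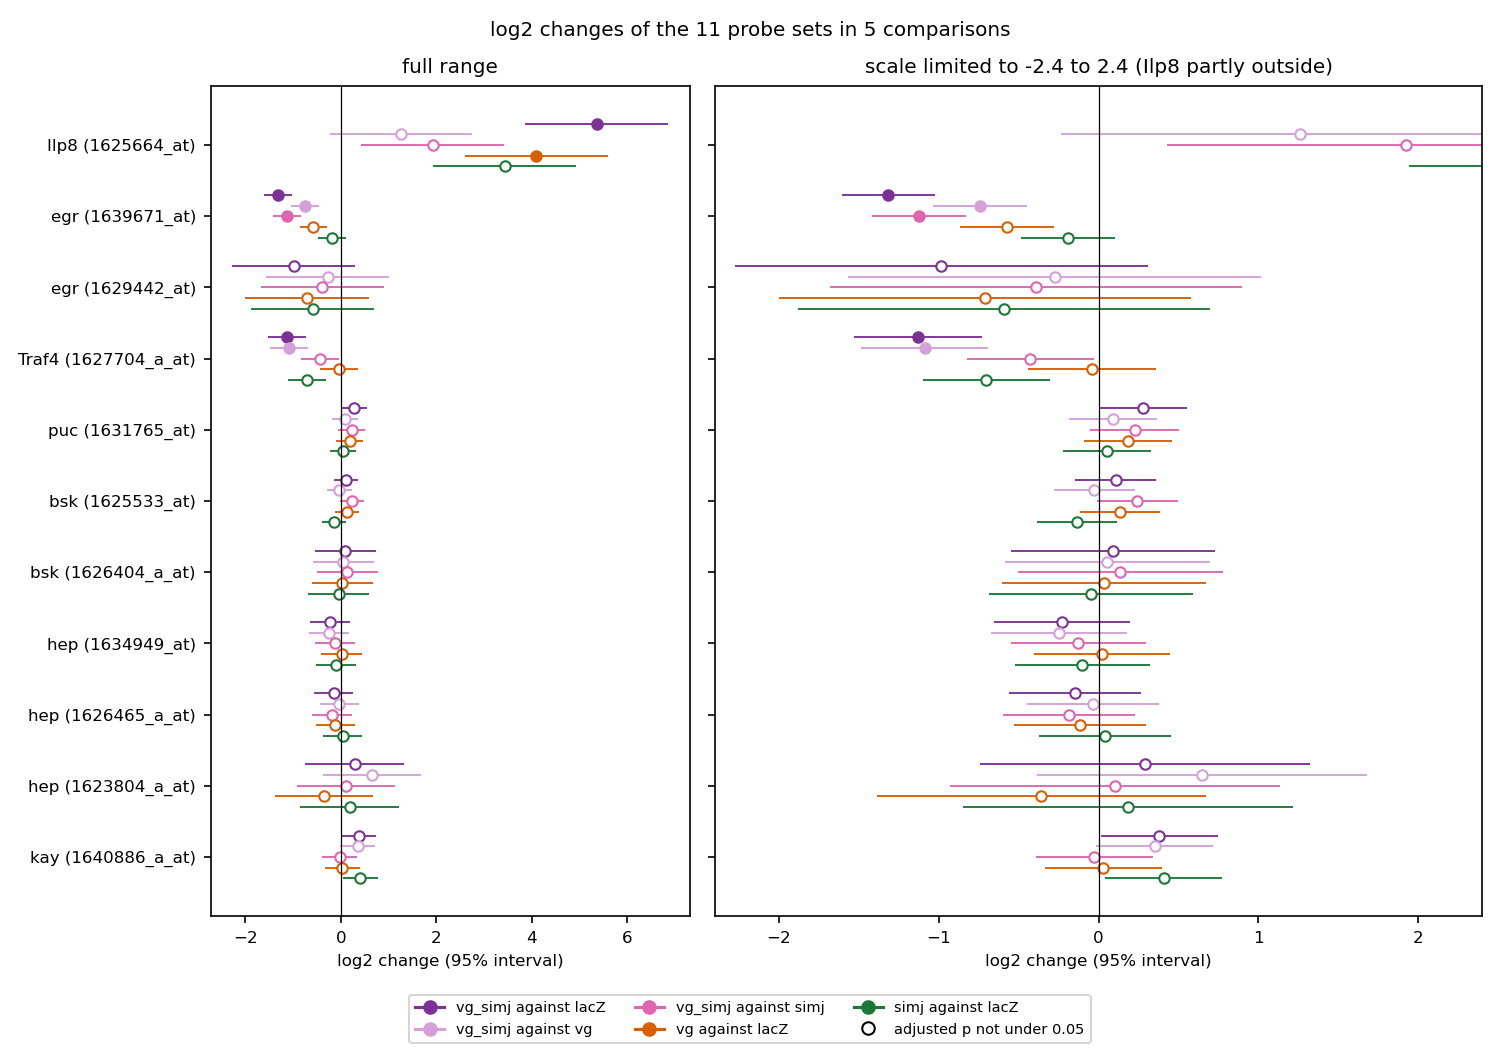
log2 change (horizontal axis) with its 95% interval for each of the 11 probe sets in 5 comparisons, over the full range at left and between -2.4 and 2.4 at right. Filled points are calls at an adjusted p under 0.05: Ilp8 to the right of 0 in vg_simj and vg against lacZ, egr to the left in all 3 vg_simj comparisons, Traf4 to the left in vg_simj against lacZ and against vg, and none for puc, bsk, hep or kay.

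The genes of the JNK cascade itself and its readout had no call, and their intervals bound the size of any difference. The phosphatase gene puc gave 1337 and 1264 in vg_simj, 1262 and 1179 in vg, 1067 and 1158 in simj, and 1102 and 1043 in lacZ discs. Its vg_simj and vg arrays lay above the lacZ arrays, and its simj arrays overlapped them. The log2 difference in vg_simj against lacZ was 0.28 ± 0.12 (adjusted p = 0.323), with a 95% interval of 0.0014 to 0.55. That interval excludes 0, and the difference did not pass the test after adjustment. In vg the log2 difference from lacZ was 0.19 ± 0.12 (adjusted p = 0.686), and in simj 0.05 ± 0.12 (adjusted p = 0.952).

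The Fos gene kay, read by probe set 1640886_a_at, gave 2123 and 2186 in vg_simj, 1685 and 1692 in vg, 2064 and 2333 in simj, and 1926 and 1421 in lacZ discs. The arrays of vg_simj and simj lay above those of vg and lacZ. Against lacZ the log2 difference was 0.38 ± 0.16 in vg_simj (adjusted p = 0.302), 0.03 ± 0.16 in vg (adjusted p = 0.978) and 0.41 ± 0.16 in simj discs (adjusted p = 0.533). The 95% interval was 0.02 to 0.75 in vg_simj and 0.04 to 0.77 in simj discs. Both intervals exclude 0, and neither difference passed the test after adjustment. The gene fig overlaps kay in the RefSeq annotation, and its probe set lay below the median on all arrays. The second kay probe set was likewise dim, between 15 and 35.7, and was not tested.

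The JNK gene bsk gave 3134 and 3188 in vg_simj, 3257 and 3186 in vg, 2658 and 2688 in simj, and 2759 and 3123 in lacZ discs with its brightest probe set, 1625533_at. The vg_simj and vg arrays lay above the simj arrays. The log2 difference was 0.11 ± 0.11 in vg_simj against lacZ (adjusted p = 0.727) and 0.27 ± 0.11 in vg against simj (adjusted p = 0.221). A second probe set, 1626404_a_at, gave 861 and 1137 in vg_simj, 807 and 1125 in vg, 792 and 1022 in simj, and 731 and 1181 in lacZ discs. With this probe set replicate 2 exceeded replicate 1 in every genotype, and the genotypes overlapped. Replicate 2 was also the higher in every genotype with the dim bsk probe set 1634580_at, which lay between 19.1 and 41.4, and with 2 of the 3 hep probe sets.

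The JNK kinase gene hep was read by 3 probe sets, and the brightest by mean in lacZ discs, 1634949_at, gave 462 and 449.5 in vg_simj, 495 and 591 in vg, 579.5 and 427 in simj, and 557 and 511 in lacZ discs. The vg_simj arrays lay below the lacZ arrays, with a log2 difference of -0.23 ± 0.18 (adjusted p = 0.640). The second, 1626465_a_at, differed by -0.15 ± 0.18 (adjusted p = 0.774), and the dimmest, 1623804_a_at, by 0.29 ± 0.45 (adjusted p = 0.834). The 3 hep probe sets thus did not share a sign in vg_simj against lacZ.

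Over the 7 probe sets of puc, bsk, hep and kay, log2 differences ran from -0.23 to 0.38 in vg_simj, from -0.36 to 0.19 in vg, and from -0.14 to 0.41 in simj discs, each against lacZ. The smallest adjusted p was 0.302 in vg_simj, 0.686 in vg and 0.533 in simj discs. In vg_simj against lacZ the intervals of the 6 probe sets other than the dim hep 1623804_a_at lay between -0.65 and 0.75. These arrays measure transcript levels and not the phosphorylation by which hep and bsk are switched on.

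The members were set beside the wider pathway, using 1 probe set per gene. Of the 7 genes for TNF ligand, receptors and adaptors, all tested, egr and Traf4 fell in vg_simj against lacZ and none rose. Over all tested probe sets 2.29% fell in that comparison. The median log2 change of the 7 was -0.04. None of them was called in vg or simj against lacZ. The receptor gene grnd, encoding Grindelwald, gave 1052 and 1363 in vg_simj, 1052 and 700.4 in vg, 1101 and 1572 in simj, and 1214 and 1682 in lacZ discs. Its vg arrays lay below the lacZ arrays, and the log2 difference was -0.73 ± 0.27 (adjusted p = 0.410). The adaptor genes Traf6 and Tab2 had their smallest p in vg_simj against simj, where the adjusted p was 0.378 for Traf6 and 0.410 for Tab2.

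Of the 8 JNK cascade kinases listed, 7 were tested and none was called in any comparison. Their log2 differences in vg_simj against lacZ ran from -0.23 to 0.35, with a median of 0.11. The highest was Mkk4, which encodes the other kinase that phosphorylates JNK, at 0.35 ± 0.14 (adjusted p = 0.278). The upstream kinase genes Mekk1 and slpr differed by at most 0.36 ± 0.14 (Mekk1 in vg_simj against vg, adjusted p = 0.453) and 0.31 ± 0.16 (slpr in vg against lacZ, adjusted p = 0.590). Jra, the Jun partner of kay in AP-1, had its smallest p in simj against lacZ, at 0.21 ± 0.18 (adjusted p = 0.826). None of kay, Jra and puc was called.

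Of the 24 damage and regeneration genes listed, 19 had a probe set and 16 were tested. In vg_simj and in vg against lacZ the count was 1 of 16 that rose, Ilp8, and none that fell, and in simj against lacZ none was called. Over all tested probe sets 1.04% rose in vg_simj and 0.255% in vg, each against lacZ. The median log2 change of the 16 genes was 0.07 in vg_simj, 0.03 in vg and 0.14 in simj discs. Ilp8 was the one gene of this list called in the comparisons with lacZ.

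Pvf1, a PDGF- and VEGF-like ligand, gave 208 and 239 in vg_simj, 401 and 478.5 in vg, 230.1 and 193 in simj, and 303 and 361 in lacZ discs. It rose by 1.05 ± 0.19 in vg against simj (adjusted p = 0.0400), a call kept in 8 of 16 alternatives. It was lost without the filter, without the trend, with only the groups compared, and without vg replicate 2 or any simj or vg_simj array (adjusted p up to 0.293). In vg_simj against vg it differed by -0.96 ± 0.19 (adjusted p = 0.0811). Its vg_simj and simj arrays lay below the lacZ arrays, without a call. This is the split between genotypes also seen for Traf4, with vg and lacZ high and vg_simj and simj low.

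Further damage genes were read without a call. The serine protease homologue gene scaf, a JNK-regulated gene of discs, differed by -1.13 ± 0.25 in vg_simj against simj (adjusted p = 0.0935). The filamin gene cher differed by 0.49 ± 0.11 in simj against lacZ (adjusted p = 0.187). The next pair of genes was picked after their values were seen. The matrix protease gene Mmp2 gave 342 and 604.5 in vg_simj, 608 and 833 in vg, 428 and 512 in simj, and 819 and 1073 in lacZ discs. Its log2 difference from lacZ was -1.04 ± 0.29 in vg_simj (adjusted p = 0.121). It was -0.997 ± 0.29 in simj (adjusted p = 0.349) and -0.40 ± 0.29 in vg discs (adjusted p = 0.738). The JAK/STAT ligand gene upd1 differed from lacZ by 0.75 ± 0.31 in vg_simj (adjusted p = 0.297). It differed by 0.97 ± 0.31 in vg (adjusted p = 0.322) and by 0.68 ± 0.31 in simj discs (adjusted p = 0.630).

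Of the 9 cell death genes listed, 4 were tested. Against lacZ, 1.04% of all tested probe sets rose in vg_simj and 0.255% in vg, and of the 4 genes skl rose in both. This gene, sickle, is one of the activators of apoptosis that antagonise the inhibitor Diap1. It gave 1298 and 1708 in vg_simj, 1054 and 1239 in vg, 40.0 and 21.5 in simj, and 18.7 and 22.6 in lacZ discs. Both genotypes with UAS-vg were high and both without it were near the background. The skl probe set thus passed the filter through the 4 vg_simj and vg arrays and had to differ. Its p-values against lacZ are therefore no separate support for the difference. The log2 change was 6.0 ± 0.30 in vg_simj (adjusted p = 8.88e-05) and 5.62 ± 0.30 in vg (adjusted p = 0.000441) against lacZ, while simj differed by 0.46 ± 0.30 (adjusted p = 0.745). With a pseudocount of 64 the change was 4.20 in vg_simj and 3.83 in vg discs. The simj and lacZ arrays of skl overlapped, whereas those of Ilp8 did not. The initiator caspase gene Dronc, the effector caspase gene Dcp-1 and the apoptosome gene Dark were not called. At its smallest p in the comparisons other than vg against simj, the adjusted p was 0.251 for Dronc, 0.230 for Dcp-1 and 0.447 for Dark.

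Of 5 JAK/STAT genes listed, 3 were tested and none was called in any comparison. In chinmo, a target of the pathway, probe set 1629484_s_at differed by 1.13 ± 0.27 in simj against lacZ (adjusted p = 0.205) and by -1.15 ± 0.27 in vg against simj (adjusted p = 0.0757). The receptor gene dome differed by 0.23 ± 0.12 in vg against lacZ (adjusted p = 0.590), and Stat92E by -0.18 ± 0.15 (adjusted p = 0.780).

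**Figure D3:**
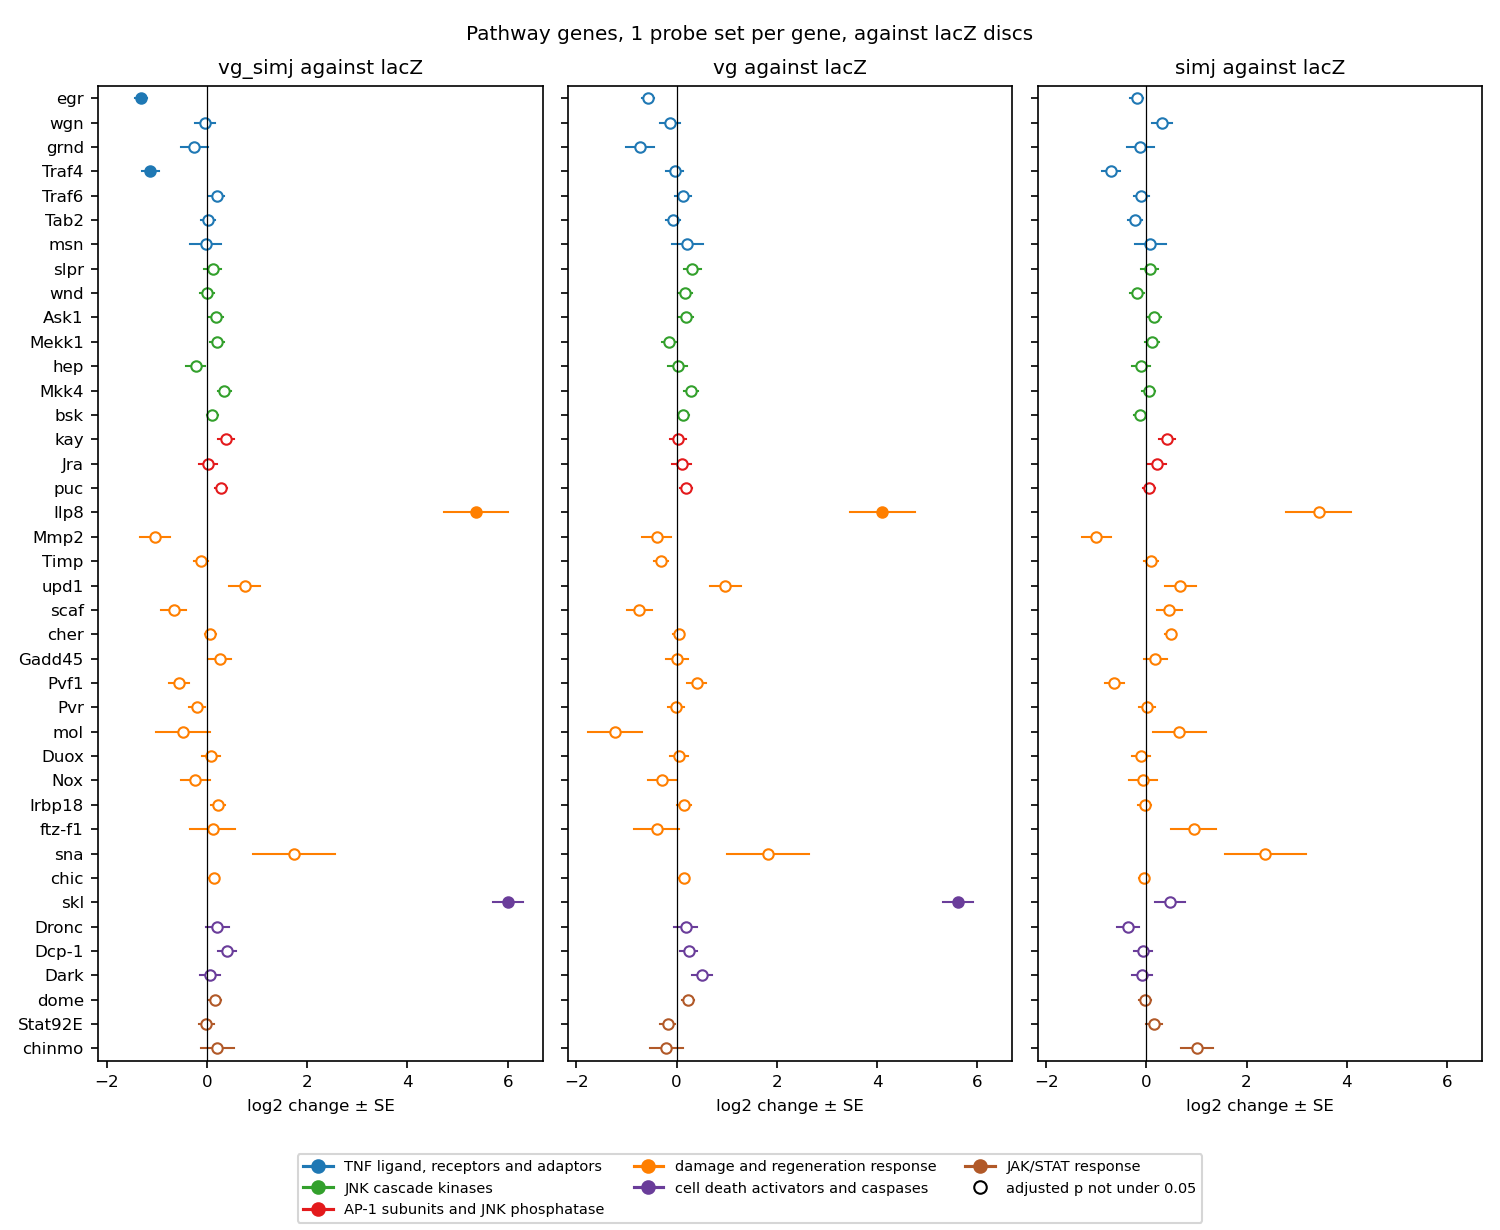
log2 change ± SE (horizontal axis) of the tested pathway genes, 1 probe set per gene, in vg_simj, vg and simj discs, each against the shared lacZ discs, coloured by list. Filled points are calls: Ilp8 and skl lie far to the right of 0 in vg_simj and vg, egr and Traf4 lie to the left in vg_simj, and no point is filled in simj.

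The genes whose pattern was most like that of a member were taken from 8033 other genes by Pearson's r of log2 values over the 8 arrays, which share their 4 genotypes, so r is a description. For Ilp8 these were dind (0.971), pinta (0.966) and CG7768 (0.954). For egr they were asRNA:CR43944 (0.998), Cyp12c1 (0.985) and Mes2 (0.980). For Traf4 they were Cdk5alpha (0.996), RapGAP1 (0.996) and loaf (0.993). For puc they were CG31809 (0.965), nes (0.954) and CG2310 (0.954), and the leading gene was PGAP5 (0.990) for bsk, CG42268 (0.980) for hep and CG8303 (0.976) for kay. None of these leading genes was another member.

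Among the members themselves, by their brightest probe sets, Ilp8 and egr ran opposite to each other over the 8 arrays (r = -0.80), as did puc and egr (r = -0.87), while Ilp8 and puc ran the same way (r = 0.74). Traf4 and kay ran opposite to each other (r = -0.83). These values rest on the same 4 genotypes and 8 arrays.

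**Figure D4:**
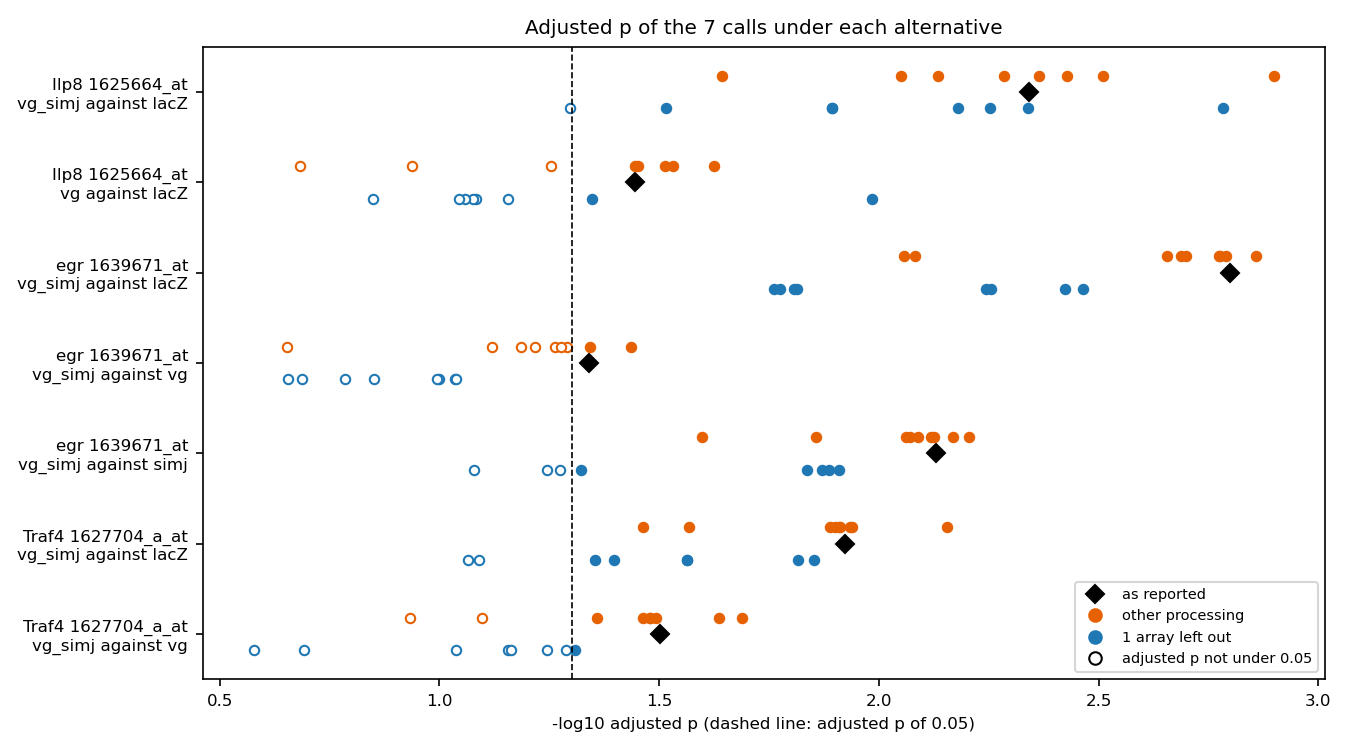
Adjusted p of the 7 member calls, as -log10 (horizontal axis), as reported (diamonds), under other processing (upper points) and with 1 array left out (lower points), with the threshold of 0.05 as a dashed line. Only egr in vg_simj against lacZ keeps every point on the called side, and the calls of egr and Traf4 in vg_simj against vg and of Ilp8 in vg against lacZ lose many.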

How the data were processed

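RNA of 8 disc samples (100 ng each) was converted to cDNA, amplified and biotin-labelled for Affymetrix arrays, per the labels' protocols. The authors deposited linear intensity, as MAS5 signals per probe set, per the submitters' processing notes, which name no version. The mean without the lowest and highest 2% was 500 on each array, which implies 1 scaling factor per array. Detection calls were not used here.

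Symbols came from GEO's platform annotation, updated through RefSeq gene identifiers: 13646 probe sets had 1 symbol (103 of them absent from RefSeq), 402 several and 4721 none, beside 183 controls. Values were log2(signal + 2.8), where 2.8 is the 10th percentile of all signals, which understates changes of dim genes. After the filter, 10205 probe sets for 8034 named genes remained. A group-means model was run in R 4.3.3 using limma 3.58.1, whose eBayes step had an intensity trend. It had 4 residual and 3.84 prior degrees of freedom, and tests were two-sided. The code was tested on simulated data. With 2 arrays a group, exact permutation reaches no two-sided p under 0.333, so the tests rest on spread shared across probe sets, and p-values measure the spread between these samples. The number of arrays limits the precision.

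The model, the filter, the comparisons, the members and the 6 pathway and 10 tissue marker lists were chosen with earlier results of these data known. Named besides the members were list genes that were called and the genes most like each member. Of the rest of each list, the 3 with the smallest unadjusted p in any of the 6 comparisons other than vg against simj were named. The alternatives were 0.1 times the pseudocount, a pseudocount of 64, no filter, a stricter filter at the 75th percentile, quantile normalization, median centring, no intensity trend, only the groups compared, a replicate block, and each array left out. Of the marker lists not described with the members, neuron genes fell (2 of 5 tested in vg_simj against lacZ, where 2.29% of all tested fell). Fat body, glia, trachea and muscle precursor genes had no call in that comparison, and nor did the 2 tested oenocyte and cuticle genes. Of the latter 2 genes, 1 rose in simj against lacZ, where 0.147% of all tested rose.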

Additional observations from a re-analysis of the deposited data

How the results depend on the processing

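The direction of each member call was the same in every alternative, and no called value changed sign. For Ilp8, which passed the filter only where it was high, the direction was fixed beforehand. With fewer probe sets tested under the stricter filter, calls over all probe sets numbered 18 in simj against lacZ, 176 in vg_simj against lacZ, 39 in vg_simj against vg, 73 in vg_simj against simj, 2 for the interaction and 118 in vg against simj. Without the intensity trend they numbered 44 in vg against lacZ, 5 in simj against lacZ, 66 in vg_simj against simj and 98 in vg against simj. With only the groups compared they numbered 31 in vg against lacZ, 6 in simj against lacZ, 41 in vg_simj against vg, 353 in vg_simj against simj and 135 in vg against simj. That setting gives no value for the interaction.

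Leaving out each array in turn gave 26 to 88 calls in vg against lacZ, 1 to 34 in simj against lacZ, 156 to 337 in vg_simj against lacZ, 21 to 87 in vg_simj against vg, 28 to 174 in vg_simj against simj, 0 to 10 for the interaction and 16 to 365 in vg against simj. A group left with 1 array was assumed to vary like the others. The cause was not tested. The share of all tested probe sets called also changed with the setting. The member counts below therefore cannot tell a change in members from a general one. In vg_simj against simj the share was 1.30% as reported, 1.48% with a pseudocount of 64 and 3.46% with only the groups compared. In vg_simj against vg these shares were 0.921%, 0.960% and 0.402%, and in vg against lacZ 0.774%, 0.872% and 0.304%.

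Members called in vg against lacZ numbered 0 with 0.1 times the pseudocount, under the stricter filter (which leaves out Ilp8), without the trend and with only the groups compared, and 0 to 1 on leaving out an array. In vg_simj against lacZ, leaving out an array gave 1 to 3. In vg_simj against vg the count was 1 with a pseudocount of 64, no filter, the stricter filter or quantile normalization, 0 without the trend or with only the groups compared, and 0 to 1 without an array. In vg_simj against simj it was 2 with a pseudocount of 64 or only the groups compared, and 0 to 2 without an array.

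Same-numbered arrays deviated together with r from 0.0590 to 0.402 over the pairs of genotypes. The labels do not say that a number marks a shared batch, so the replicate block was used only as an alternative. With the replicate block, calls over all probe sets numbered 213 in vg_simj against simj, 520 in vg against simj and 117 in both vg against lacZ and vg_simj against vg, and 1 member was called in vg_simj against vg.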

Other observations

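Some stress genes lay below the array median on all 8 arrays and were not tested, and they were chosen after their values were seen. Ets21C, an ETS transcription factor gene induced by JNK in discs, gave 35.4 and 25.1 in vg_simj, 4.6 and 11.6 in vg, 20.8 and 40.4 in simj, and 4.5 and 2.8 in lacZ discs. The death activator gene grim gave 27.3 and 30.1 in vg_simj, 12.8 and 11.9 in vg, 9.7 and 3.5 in simj, and 10 and 12.1 in lacZ discs. Lgr3, the neuronal receptor of Ilp8, gave 42.5 and 0.9 in vg_simj, 38.7 and 13.6 in vg, 1.0 and 12.1 in simj, and 2.7 and 4.1 in lacZ discs. At these signals, levels cannot be told from background.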
